A study of Mus musculus with 4 samples.

Results

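Target genes of the transcriptional coactivator YAP that are tied to the matrix, 7 of the 24378 gene rows in the deposited count tables, were followed through single-cell transcriptomes of mouse basal epidermis. They were taken by name from every table: Cyr61, Ctgf, Thbs1, Ankrd1, Amotl2, Axl and Tgif1. The cells came from the dorsal interfollicular epidermis (IFE) of female Ivl-CreERT2/R26-tdTomato mice at postnatal day 57, which had all received tamoxifen 2 days before (10 µg per g body weight by the labels, while the methods of the study name another dose). Cre was driven from the involucrin promoter, so that cells with past involucrin expression carried tdTomato. Live basal cells (ITGA6+/SCA1+/CD34-) were sorted as traced (Tom+) or non-traced (Tom-) and captured on microfluidic chips of 96 wells, with 2 libraries per sort (run 1 and run 2). Run is a name used here for a number in the library titles that a Tom+ and a Tom- library share. What that number stands for is not stated. The study used 2 mice, and which mouse gave which library was not stated, so p-values measure only the spread between these libraries, which may in part be technical.

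YAP and its paralogue TAZ shuttle between cytoplasm and nucleus. When cells are spread, under tension or firmly attached to matrix, they enter the nucleus and act through the DNA-binding TEAD proteins, whereas the kinases of the Hippo pathway hold them in the cytoplasm. In the epidermis nuclear YAP is known from basal cells in contact with the basement membrane. Among the genes followed here, Cyr61 and Ctgf encode secreted matricellular proteins of the CCN family that bind integrins, and Thbs1 encodes thrombospondin 1, a secreted matrix glycoprotein that binds CD47 and integrins. Axl encodes a receptor tyrosine kinase for Gas6, Amotl2 an angiomotin protein that binds YAP at junctions, Ankrd1 an ankyrin repeat protein and Tgif1 a homeobox repressor of TGF-beta signalling.

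RefSeq (GRCm38) lists Cyr61 as Ccn1 on chromosome 3 (145646971 to 145649985) and Ctgf as Ccn2 on chromosome 10 (24595442 to 24598683). Thbs1 lies on chromosome 2 (118111876 to 118127133), Ankrd1 on chromosome 19 (36111965 to 36119844), Amotl2 on chromosome 9 (102717091 to 102733418), Axl on chromosome 7 (25756500 to 25788924) and Tgif1 on chromosome 17 (70844205 to 70853532). Promoter windows of 300 bases around the annotated start, most of them before it, were given for 5 of the 7 genes. The letters of the TEAD motif GGAATG, on either strand, occurred once each in the windows of Cyr61, Amotl2 and Axl, and 2 times in that of Ankrd1. None of the 5 windows of Tgif1, which has several annotated starts, held them. Of 32851 promoter windows of the same length, 14.7% held the motif. The AP-1 motif TGANTCA was in 7.81% and the SRF CArG box in 1.63% of all windows, and neither occurred in the windows of these genes. The 2 windows below are those of Cyr61, the most abundant of the genes in these cells, and of Ankrd1, which was not detected in any cell although its window held the motif more than once. They run 5′ to 3′ along the transcribed strand, and capitals mark the TEAD motif (as CATTCC where it is read from the other strand).
Cyr61, chr3:145649936-145650235, minus strand: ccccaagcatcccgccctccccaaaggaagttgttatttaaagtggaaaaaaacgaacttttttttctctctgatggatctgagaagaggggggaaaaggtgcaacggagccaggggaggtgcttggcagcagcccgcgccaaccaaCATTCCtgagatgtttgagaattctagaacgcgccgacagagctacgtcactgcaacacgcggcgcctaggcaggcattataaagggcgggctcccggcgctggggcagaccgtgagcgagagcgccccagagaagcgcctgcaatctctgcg
Ankrd1, chr19:36119795-36120094, minus strand: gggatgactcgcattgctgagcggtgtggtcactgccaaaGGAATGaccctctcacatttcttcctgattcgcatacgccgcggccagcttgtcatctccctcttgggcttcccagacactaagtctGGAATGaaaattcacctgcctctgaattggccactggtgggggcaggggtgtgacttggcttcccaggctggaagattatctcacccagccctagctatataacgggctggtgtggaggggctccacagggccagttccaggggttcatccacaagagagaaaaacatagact
The motif began 103 bases before the start of Cyr61, and 210 and 123 bases before that of Ankrd1. A match of letters is a description of the window and does not show binding.

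The libraries held 35 and 58 traced cells (Tom+ run 1 and run 2) and 20 and 48 non-traced cells (Tom- run 1 and run 2) with at least 2000 unique molecular identifiers (UMIs, each marking 1 captured 5′ transcript end whatever the transcript length) over genes, or 161 cells of 384 wells. Their depth was 81630 to 305407 UMIs per library and 2024 to 11578 per cell. No well name was shared between libraries. Basal markers were present in all libraries (summed level of 6 genes, 20492 to 31840 CPM, UMIs per 1000000 gene UMIs), and the sum of 6 differentiation markers, Krt10 among them, was 17173 and 17547 in Tom+ against 4386 and 2178 in Tom-. The 6 fibroblast markers summed to 0 to 12.3 CPM and the 6 endothelial markers to 0 to 12.7 CPM in the 4 libraries, with the defining genes Dcn, Lum, Pdgfra, Cdh5 and Kdr at or near 0.

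Cyr61 and Thbs1 carried nearly all of the signal. Cyr61 was counted 72, 138, 109 and 306 times in Tom+ run 1, Tom+ run 2, Tom- run 1 and Tom- run 2, which corresponds to 458, 452, 1335 and 1658 CPM. Thbs1 was counted 40, 110, 64 and 258 times in the same order, or 254, 360, 784 and 1398 CPM. For both matricellular genes each non-traced library lay above each traced library, as the plot of levels by library shows. How many of all genes split the libraries in this way was not counted.

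**Figure D1:**
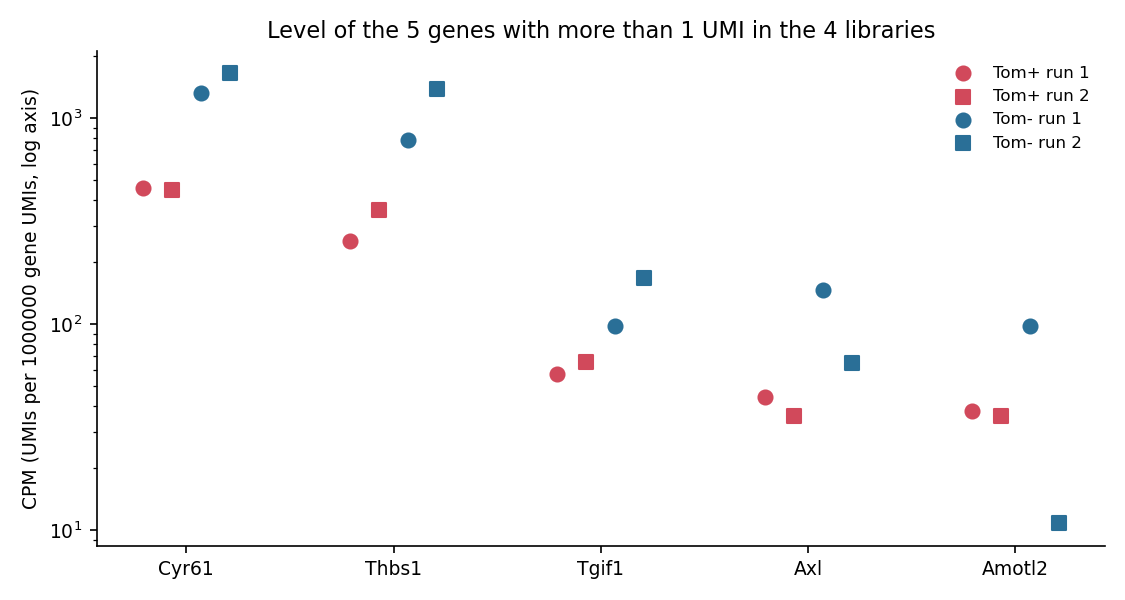
Level of the 5 genes with more than 1 UMI (y axis, CPM, log axis) in each of the 4 libraries (1 point per library, red for Tom+ and blue for Tom-, circles for run 1 and squares for run 2). Cyr61 and Thbs1 lie at 254 CPM or more in every library and are higher in both Tom- libraries, whereas Amotl2 is highest in Tom- run 1 (98.0) and lowest in Tom- run 2 (10.8).

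The other genes were far less abundant. Tgif1 stood at 57.2, 65.5, 98.0 and 168 CPM in the order above, from 8 to 31 UMIs. Axl stood at 44.5, 36.0, 147 and 65.0, from 7 to 12 UMIs. Both were higher in the 2 non-traced libraries, on few counts, and how many of all genes were so was not counted. The share of cells with a Tgif1 UMI at equal depth, given below, did not follow its level. Amotl2 stood at 38.1, 36.0, 98.0 and 10.8 CPM, so that its traced levels lay between its 2 non-traced levels. Ctgf gave 1 UMI in all, in Tom- run 1. Ankrd1 gave none in any library, where a count of 0 allows up to 9.82 CPM in the deepest library (Tom+ run 2) and up to 36.8 in the shallowest (Tom- run 1). Over the means of the libraries the order within both sorts was Cyr61, then Thbs1, then Tgif1, with Axl and Amotl2 lowest. In Tom+ the 2 libraries of neighbouring genes did not overlap between Cyr61, Thbs1, Tgif1 and Axl, whereas Axl and Amotl2 overlapped. In Tom- the ranges of Cyr61 and Thbs1 overlapped, and those of Tgif1, Axl and Amotl2 did as well.

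Cells were then compared at equal depth, after 2000 UMIs had been drawn at random from each. At least 1 Cyr61 UMI was drawn in 20.0% of cells of Tom+ run 1 (95% exact binomial interval, 8.44 to 36.9%), 36.2% of Tom+ run 2 (24.0 to 49.9%), 55.0% of Tom- run 1 (31.5 to 76.9%) and 50.0% of Tom- run 2 (35.2 to 64.8%). For Thbs1 the shares were 17.1% (6.56 to 33.6%), 24.1% (13.9 to 37.2%), 40.0% (19.1 to 63.9%) and 54.2% (39.2 to 68.6%). Intervals cover counting error only. The mean share of traced minus that of non-traced libraries was -24.4 percentage points for Cyr61 (28.1% ± 11.5 against 52.5% ± 3.54, SD, n = 2) and -26.4 points for Thbs1 (20.6% ± 4.95 against 47.1% ± 10.0). With 2 libraries against 2 the two-sided exact permutation test cannot go below p = 0.333, the value that both genes gave. On full counts the shares were 34.3, 50.0, 55.0 and 60.4% for Cyr61 and 22.9, 32.8, 50.0 and 58.3% for Thbs1, and the difference for Cyr61 became -15.6 points. Among cells with at least 5000 UMIs the differences were -44.0 points for Cyr61 and -16.7 points for Thbs1, in the same direction. Few cells of Tom- run 1 were this deep (median of its kept cells, 3877 UMIs), and its share weighed as much as that of Tom- run 2. The size of these differences is therefore unsure. The shares of cells with Tgif1, Axl or Amotl2 were 0 to 18.8% in every library, and those of Tgif1 and Amotl2 overlapped between the sorts, whereas those of Axl, at most 8.62% in Tom+ and at least 10.4% in Tom-, did not. How many of all genes had shares that did not overlap was not counted.

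Expression was uneven from cell to cell. Of the 161 cells, 98 had no drawn Cyr61 UMI, 40 had 1 to 4 and 23 had 5 or more. For Thbs1 the counts were 107, 36 and 18 cells. The most Cyr61 UMIs in a cell were 7, 11, 9 and 26 in Tom+ run 1, Tom+ run 2, Tom- run 1 and Tom- run 2, and the most Thbs1 UMIs were 9, 9, 9 and 33. Few cells thus held much of each library's total: the top 3 cells held 73.9, 41.0, 48.8 and 35.0% of the drawn Cyr61 UMIs, and 84.2, 48.8, 75.0 and 39.6% of the Thbs1 UMIs. The variance over cells was 3.39 to 9.72 times the mean for Cyr61 and 4.12 to 11.3 times the mean for Thbs1.

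**Figure D2:**
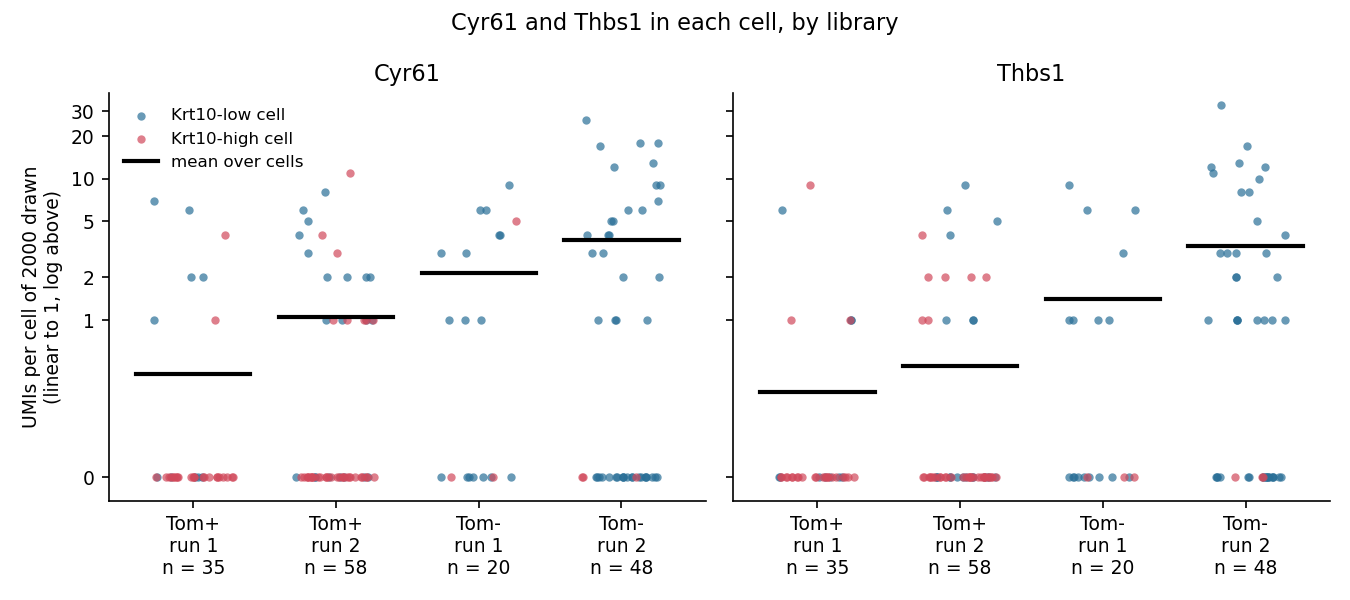
Cyr61 (left) and Thbs1 (right) UMIs in each cell after 2000 UMIs had been drawn from it (y axis, linear to 1 and logarithmic above) by library (x axis), with blue points for Krt10-low and red points for Krt10-high cells and a black bar at the mean over cells. The 10 cells with 5 or more Thbs1 UMIs in Tom- run 2 are all Krt10-low, and its mean of 3.31 lies above those of the other libraries (0.54 to 1.40).

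The cells with most Cyr61 and Thbs1 were mostly non-traced cells, many of them without a drawn Krt10 UMI. Of the 23 cells with 5 or more Cyr61 UMIs, 17 were Tom- and 14 had no drawn Krt10 UMI. Of the 18 cells with 5 or more Thbs1 UMIs, 13 were Tom- and 13 had no drawn Krt10 UMI. Over all 161 cells, 20 and 48 were from Tom- run 1 and run 2, and 56 had no drawn Krt10 UMI. Tom- run 2 alone gave 13 of the 23 and 10 of the 18 cells. The median number of Krt14 UMIs, the keratin of basal cells, was 26 in the 23 and 30 in the 18 cells, against 13 and 11 in cells with none of the respective gene. These medians pool libraries, sorts and Krt10 levels. Within libraries the Spearman correlation of Cyr61 with Krt14 was 0.39 and 0.40 in Tom+ but -0.02 and 0.15 in Tom-. That of Thbs1 with Krt14 was 0.37 and 0.30 in Tom+ and 0.37 and 0.17 in Tom-. The median depth of the 23 and 18 cells before drawing, 4056 and 3602 UMIs, was close to that of the cells without (3819 and 3972). None of these 23 and 18 cells had a UMI of any of the 6 fibroblast or 6 endothelial markers, and smooth muscle and pericyte markers gave at least 1 UMI in 2 of the 23 and 1 of the 18. At least 1 of 6 markers of the infundibulum, the upper part of the hair follicle, was found in 21 of the 23 and 17 of the 18 cells, against 130 of all 161 cells, and 3 or more of them in 3 and 1 cells. This list includes genes such as Krt17 and Aqp3 that interfollicular cells can also express, and it summed to 464, 1971, 1152 and 1246 CPM in Tom+ run 1, Tom+ run 2, Tom- run 1 and Tom- run 2. The part of infundibular cells in the levels of Cyr61 and Thbs1 was not tested beyond the fits without cells that had 3 markers of another cell type.

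Between traced and non-traced cells, the UMIs of each library were summed and compared by edgeR's quasi-likelihood test over 3070 genes, of which 38 (1.24%) were called at an adjusted p below 0.05, 12 (0.391%) of them lower in traced cells. Ctgf, Ankrd1 and Amotl2 did not pass the filter on low counts. Of the 4 genes tested, Cyr61 and Thbs1 were called and both fell. The genes and the tests were chosen with earlier results of these data known. The calls and adjusted p-values of these genes, here and below, are therefore not independent evidence. They cannot show that these genes were called more often than other genes. Cyr61 was 3.41-fold lower in traced cells (log2 fold change -1.77, SE 0.28, adjusted p = 0.00101 by edgeR with Benjamini-Hochberg adjustment), with a mean of 455 ± 4.19 CPM in Tom+ against 1497 ± 228 in Tom- (SD, n = 2). Thbs1 was 3.67-fold lower (log2 fold change -1.88, SE 0.33, edgeR adjusted p = 0.00375), with 307 ± 74.8 against 1091 ± 434 CPM. Tgif1 (log2 fold change -1.21, SE 0.49, edgeR adjusted p = 0.361) and Axl (-1.33, SE 0.62, edgeR adjusted p = 0.487) were not called.

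Within run 1 the log2 ratio of Tom+ to Tom- was -1.54 for Cyr61 and -1.62 for Thbs1, and within run 2 it was -1.88 and -1.96. Cyr61 was called under all 14 other settings of the test. Thbs1 was not called without Tom- run 2, which holds most of its UMIs (log2 fold change -1.25, edgeR adjusted p = 0.0861), without Tom+ run 1 (-1.62, edgeR adjusted p = 0.0502) or among cells with at least 5000 UMIs (-1.44, edgeR adjusted p = 0.237).

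The sorts differ in how far cells had gone towards differentiation, so cells were also divided by Krt10, the keratin that epidermal cells switch on when they commit. Cells with 6 or more Krt10 UMIs of 2000 are called Krt10-high here and the others Krt10-low. This is a range and not a cell type, and 20 of the 161 cells lay near the limit, with 4 to 7 UMIs. The 4 libraries (Tom+ run 1, Tom+ run 2, Tom- run 1, Tom- run 2) held 25, 37, 3 and 3 Krt10-high and 10, 21, 17 and 45 Krt10-low cells.

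Cyr61 and Thbs1 were lower in Krt10-high cells. In Tom+ run 1 the Cyr61 level was 1050 CPM in Krt10-low and 162 in Krt10-high cells, and in Tom+ run 2 it was 793 and 296. In Tom- run 1 the Cyr61 levels were 1342 and 1308, the latter from 22 UMIs over 3 cells of which 1 had a drawn UMI. In Tom- run 2 they were 1781 and 0, the latter from 3 cells with 12790 UMIs, where a count of 0 allows up to 235 CPM. Of the Krt10-low cells of that library, 53.3% had a drawn Cyr61 UMI. Cyr61 therefore stood lower in Krt10-high cells of both Tom+ libraries. It was also lower in Tom- run 2, on 3 cells, and nearly equal in Tom- run 1. Thbs1 was lower in all 4 libraries, at 477 against 143 CPM in Tom+ run 1 and 699 against 205 in Tom+ run 2. In the Tom- libraries its Krt10-low levels were 988 and 1502, and the Krt10-high cells gave no Thbs1 UMI among 16821 and 12790. A count of 0 allows up to 178 and 235 CPM there, for counting error only and over 3 cells each, while 47.1 and 57.8% of the Krt10-low cells of these libraries had a drawn Thbs1 UMI. In Tom+ run 1 and run 2 Thbs1 was 3.34-fold and 3.41-fold lower in Krt10-high cells.

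**Figure D3:**
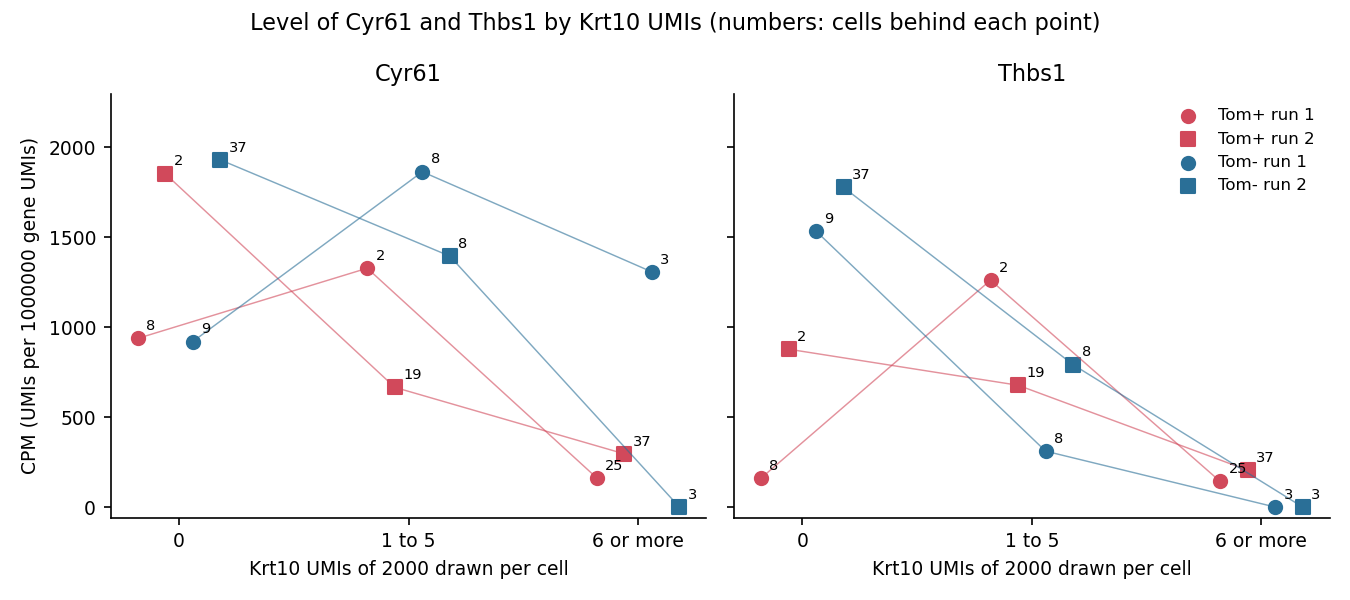
Level of Cyr61 (left) and Thbs1 (right) in CPM (y axis) in cells with 0, 1 to 5, or 6 and more Krt10 UMIs of 2000 (x axis), joined by library (red Tom+, blue Tom-, circles run 1, squares run 2), with the number of cells beside each point. Thbs1 falls from 1534 and 1777 to 311 and 791 and then to 0 in the 2 Tom- libraries, while several points rest on 2 or 3 cells.

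In a fit of the 8 sums with library as a block, 1905 genes were tested and 122 (6.4%) called, 61 (3.2%) of them lower in Krt10-high cells. Both Cyr61 (log2 fold change -1.78, SE 0.33, edgeR adjusted p = 9.95e-05) and Thbs1 (-2.43, SE 0.38, edgeR adjusted p = 2.48e-06) were among those that fell. Tgif1 (-1.76, SE 0.71, edgeR adjusted p = 0.157) stood at 115 against 28.6 CPM in Tom+ run 1 and 136 against 33.4 in Tom+ run 2, and at 92.6 against 119 and 180 against 0 in Tom- run 1 and run 2. With these classes limma-voom called Tgif1 (-1.76, adjusted p = 0.0366), whereas edgeR did not. With classes from 10 other random draws of 2000 UMIs per cell it could be tested in 9 and edgeR called it in 5, and it was also called with classes from full counts (-2.53, edgeR adjusted p = 0.0210). Cyr61 and Thbs1 were called in all 10 draws. Axl (-2.22, SE 1.02, edgeR adjusted p = 0.247) was not called, and its Krt10-high cells gave 7 UMIs in all. Amotl2, not tested, gave 13 UMIs in Krt10-low and 14 in Krt10-high cells.

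The calls of Cyr61 and Thbs1 held with the 2 Tom+ libraries alone (log2 fold changes -1.96 and -1.78, edgeR adjusted p = 0.0230 and 0.0229), where both classes have many cells. With fold changes in the same direction, the calls were lost with DESeq2's Wald test (-2.30 for Cyr61 and -3.66 for Thbs1, adjusted p = 0.237 and 0.0533), among cells with at least 5000 UMIs (-1.53 and -1.96, edgeR adjusted p = 0.234 for both, with no gene called) and without the 40 cells that had 3 markers of another cell type (-2.05 and -1.88, edgeR adjusted p = 0.0745 and 0.102), and for Cyr61 against cells without any Krt10 UMI (-1.66, edgeR adjusted p = 0.139). When 1 Krt10 UMI sufficed for the Krt10-high class the fold changes were smallest among these settings (-0.49 and -1.34, edgeR adjusted p = 0.615 and 0.0855). A library entered these fits only with at least 3 cells in both classes. At 5000 UMIs or more this left only the 2 Tom+ libraries. Tom+ run 2 held 2 cells without a drawn Krt10 UMI. It was therefore absent from the fit against such cells and from the fit with a limit of 1 Krt10 UMI.

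Below the limit of 6 UMIs, Krt10-low cells were divided once more by whether any Krt10 UMI was drawn. In cells without a drawn Krt10 UMI, Thbs1 stood at 161 and 878 CPM in Tom+ run 1 and run 2 (8 and 2 cells) and at 1534 and 1777 in Tom- run 1 and run 2 (9 and 37 cells). In cells with 1 to 5 Krt10 UMIs it stood at 1262 and 677 in Tom+ (2 and 19 cells) and at 311 and 791 in Tom- (8 and 8 cells). Thbs1 was thus higher without Krt10 in 3 of the 4 libraries. Cyr61 stood at 938, 1853, 921 and 1931 CPM without Krt10 and at 1328, 666, 1865 and 1395 with 1 to 5 Krt10 UMIs, higher without Krt10 in the libraries of run 2 and lower in those of run 1. These values are given without a test, since some rest on 2 cells.

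Among Krt10-low cells alone, traced and non-traced cells were compared over 1318 genes, of which edgeR called 4 (0.303%). None of the 4 genes tested was called. Thbs1 was 2.19-fold lower in traced cells (log2 fold change -1.13, SE 0.32, edgeR adjusted p = 0.162) and Cyr61 1.81-fold lower (-0.86, SE 0.28, edgeR adjusted p = 0.411). Both passed an unadjusted p of 0.05 (0.000985 for Thbs1 and 0.00437 for Cyr61), as 5.46% of all genes did. DESeq2 and limma-voom called none of the 4 genes. Tgif1 (-0.26, SE 0.59) and Axl (-0.40, SE 0.85) had standard errors larger than their fold changes. In the narrower set of cells without Krt10 UMIs edgeR called Thbs1 (-3.44, adjusted p = 0.000123), but there the 8 cells of Tom+ run 1, with 6 Thbs1 UMIs (161 CPM), stood alone for the traced cells and were assumed to vary like the other libraries. The 2 such cells of Tom+ run 2, too few for the fit, stood at 878 CPM, so this value rests on 1 library. Krt1 and Krtdap, differentiation markers, rose in traced Krt10-low cells (log2 fold changes 2.20 and 3.07, edgeR adjusted p = 0.00368 and 0.00681), so these markers differed between the sorts among Krt10-low cells too. Krt10, which set the class, was higher in traced cells within the range left below its limit (1.52). The part of these markers in the values of Thbs1 and Cyr61 was not tested.

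Run 2 against run 1, with sort in the model, gave 13 called genes of 3070 (0.423%), and edgeR called none of the 4 tested members of the set. Thbs1 was 1.70-fold higher in run 2 (log2 fold change 0.76, SE 0.26, edgeR adjusted p = 0.197) and alone of the 4 passed an unadjusted p of 0.05, as 8.93% of all genes did. The difference of Cyr61 was 0.24 (SE 0.23, edgeR adjusted p = 0.829). DESeq2 and limma-voom called none of these genes either.

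**Figure D4:**
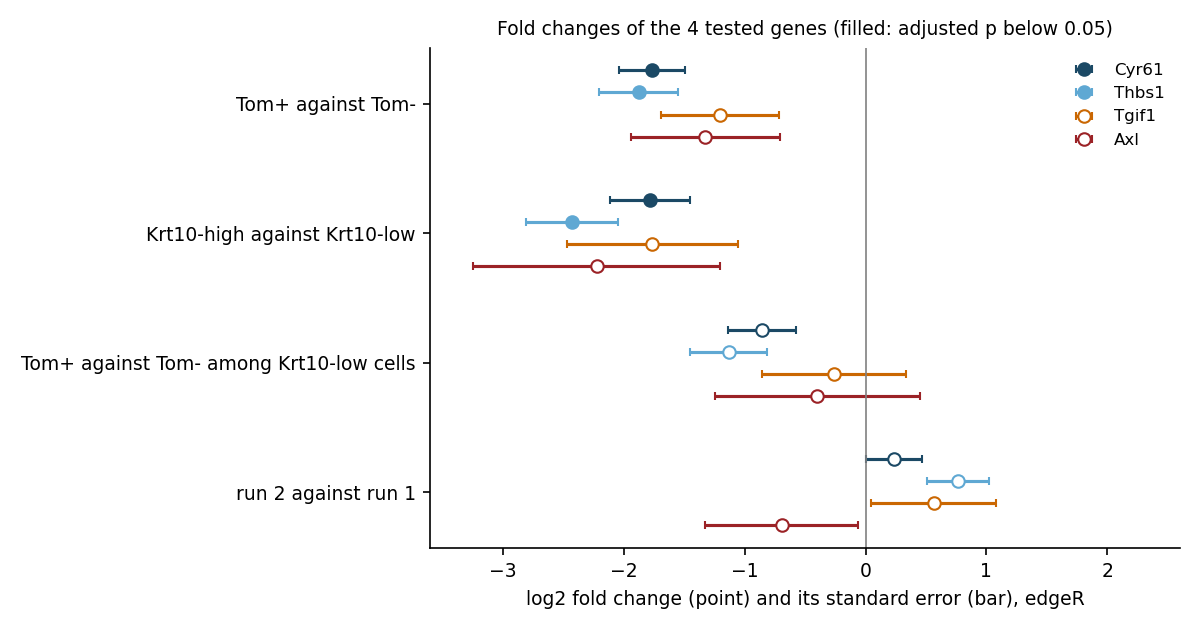
Log2 fold changes (points) with their standard errors (bars) from edgeR (x axis) for Cyr61, Thbs1, Tgif1 and Axl in 4 comparisons (y axis), filled where the adjusted p is below 0.05. Cyr61 and Thbs1 are filled for Tom+ against Tom- (-1.77 and -1.88) and for Krt10-high against Krt10-low cells (-1.78 and -2.43), and no gene is filled in the other 2 comparisons.

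Within libraries, Cyr61 and Thbs1 shared cells only in part. Both were drawn in 29 of the 161 cells, Cyr61 alone in 34, Thbs1 alone in 25 and neither in 73. Of the cells with Cyr61, 46.0% also had Thbs1 (95% exact binomial interval, 33.4 to 59.1%), and of those without it 25.5% (17.2 to 35.3%). This pooled contrast includes the difference between sorts, and within libraries the pairs of shares were 28.6 and 14.3% in Tom+ run 1, 28.6 and 21.6% in Tom+ run 2, 45.5 and 33.3% in Tom- run 1, and 66.7 and 41.7% in Tom- run 2. In each library Thbs1 was thus more frequent among cells with Cyr61, with intervals that overlap. By Krt10 class, over all libraries, Thbs1 was drawn in 53.8% of Krt10-low cells with Cyr61 and 39.0% of those without, but in 9.09% (1 of 11) of Krt10-high cells with Cyr61 and 15.8% (9 of 57) of those without, so the contrast within libraries also mixes the classes. Cells with both genes were nearly all Krt10-low (28 of 29). The Spearman correlation of the 2 genes over cells at equal depth was 0.17, 0.16, 0.09 and 0.36 in the 4 libraries (35, 58, 20 and 48 cells, mean 0.20), which is weak and in such sparse counts no finding. Correlations among the other pairs averaged -0.03 to 0.17 and rested on 13 to 37 drawn UMIs of Amotl2, Axl or Tgif1. Counting the 5 genes with a drawn UMI together, 62 cells had none of them, 48 had 1, 38 had 2, 12 had 3 and 1 had 4. Cells with none made up 54.3 and 43.1% of the traced and 25.0 and 27.1% of the non-traced libraries.

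**Figure D5:**
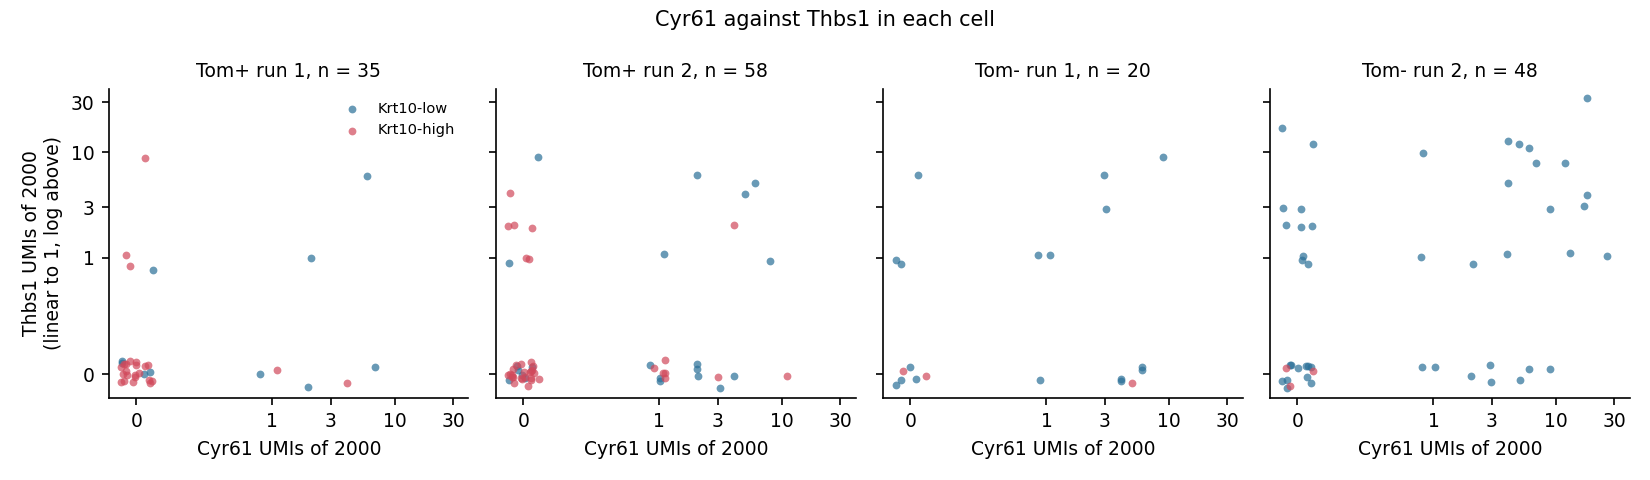
Cyr61 (x axis) against Thbs1 (y axis) UMIs of 2000 in each cell, 1 panel per library, both axes linear to 1 and logarithmic above, with a small random shift to separate points (blue Krt10-low, red Krt10-high). Cells with both genes are 2, 6, 5 and 16 in the 4 panels from left to right, and most of the others lie along an axis.

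The 5 genes whose cell-to-cell pattern was most like that of Cyr61 and the 5 most like Thbs1 had no gene in common. Of the 7 genes, only Cyr61 and Thbs1 had at least 100 drawn UMIs, the minimum set for this ranking. The genes compared with them, 1113 in all, were those drawn in a set minimum share of the kept cells. By the mean of the 4 within-library Spearman correlations at 2000 UMIs per cell, Cyr61 was most like Fos (0.38, 0.31, 0.57 and 0.62, mean 0.47), a subunit of AP-1. Next came the basal keratin gene Krt5 (0.37, 0.48, 0.41 and 0.09, mean 0.34). The metallothionein genes Mt1 and Mt2 (means 0.34 and 0.34) and the stress-induced Atf3 (0.33) followed. Thbs1 was most like Csrp1, which encodes a LIM protein of actin bundles (0.66, 0.32, 0.15 and 0.16, mean 0.32). Next came the lamin gene Lmna (mean 0.31), Krt14 (0.30), Ifrd1 (0.04, 0.30, 0.46 and 0.41, mean 0.30) and Nr4a1 (0.29), an immediate early nuclear receptor. Some of these means thus lean on part of the libraries. Thbs1 ranked 39 for Cyr61 and Cyr61 ranked 36 for Thbs1, and 95% of the 1113 genes lay below 0.17 for either gene. These values describe cells that share a library and a depth but mix Krt10 classes, and carry no test.

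The sum of 20 immediate early and dissociation stress genes, which includes Fos, Jun, Egr1 and Atf3, correlated with Cyr61 at 0.12 and 0.27 over the cells of the Tom+ libraries and at 0.59 and 0.52 over those of the Tom- libraries, and with Thbs1 at 0.29, 0.20, -0.21 and 0.32. Cyr61 is itself known as an immediate early gene. The part of cell isolation in its level was not tested. Between sorts, all 20 genes of this list were tested and only Ier3 was called, as lower in traced cells (log2 fold change -1.48, SE 0.37, edgeR adjusted p = 0.0469), with a median log2 fold change of -0.28 over the list against -0.01 over all genes. Of the 20 genes, 17 had negative fold changes, against 1550 of all 3070 genes tested. Fos stood at 3046 and 3307 CPM in Tom+ and 3491 and 3429 in Tom- (log2 fold change -0.16), a smaller change than the list median. With Krt10, the correlation of Thbs1 was -0.21, -0.27, -0.27 and -0.31, and that of Cyr61 -0.49 and -0.43 in Tom+ but -0.02 and 0.02 in Tom-, where 55.0 and 22.9% of cells had a drawn Krt10 UMI, against 77.1 and 96.6% in Tom+.

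None of the other targets of YAP and TAZ that could be tested was called, but few could be tested. Of 17 further targets, 16 had at least 1 UMI and 5 were abundant enough to test between sorts (Myof, Asap1, Igfbp3, Crim1 and Ptpn14, named here after their values were seen), with a median log2 fold change of -0.16 (against -0.01 over all genes). The nearest was Igfbp3, a secreted IGF-binding protein, at 483 and 265 CPM in Tom+ against 613 and 959 in Tom- (log2 fold change -1.19, SE 0.33, edgeR adjusted p = 0.100). Of 21 genes of the Hippo pathway 7 were tested and none called (median -0.17). Yap1 itself, also named after its values were seen, stood at 102 and 124 CPM in Tom+ and 98.0 and 200.5 in Tom-. Against Krt10, 4 further targets and 5 Hippo genes were tested, with none called and medians of -0.32 and -0.42 against -0.06 over all genes. Over all genes, 1.24% were called between sorts and 6.4% by Krt10 class. With such shares, the lack of a call among so few genes does not set these lists apart from other genes.

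Of the genes for the matrix that basal cells rest on and for receptors of the secreted members, 3 were called in Krt10-high cells, each as lower. Of 20 matrix and basement membrane genes, 6 were tested in each comparison and all 6 had negative fold changes in both. Over all genes, 1550 of 3070 were negative between sorts and 1028 of 1905 by Krt10 class. None was called between sorts (median -1.27), and 2 of 6 fell in Krt10-high cells (median -1.66, where 3.2% of all genes fell), namely Lamb3 (log2 fold change -2.36, SE 0.52, edgeR adjusted p = 0.00101), a chain of the main laminin of the epidermal basement membrane, and Col17a1 (-1.33, SE 0.22, edgeR adjusted p = 8.70e-06), the hemidesmosomal collagen XVII. Of 20 receptors and ligands of the members, 12 were tested between sorts with none called (median -0.26), and 10 by Krt10 class with 1 of them, Itga3, lower in Krt10-high cells (log2 fold change -2.64, SE 0.69, edgeR adjusted p = 0.00821, list median -0.16). Itga3 encodes the integrin subunit that pairs with beta 1 as a receptor of that laminin, and it stood at 210 against 28.6 CPM in Tom+ run 1 and 115 against 28.6 in Tom+ run 2. No UMI of Itga3 or Lamb3 was found in the Krt10-high cells of either Tom- library, which are 3 cells each. A count of 0 allows up to 178 and 235 CPM there in run 1 and run 2. The Krt10-low cells of these libraries stood at 201 and 157 CPM for Itga3 and at 293 and 303 for Lamb3. Of 17 actin and SRF genes, 10 were tested between sorts and 8 by class, with none called (medians -0.17 and -0.24). Of 14 TGF-beta genes 3 and 2 were tested, and Tgfbi, a secreted matrix protein, fell in Krt10-high cells (-1.22, SE 0.29, edgeR adjusted p = 0.00338, list median -0.70). Of 19 stress genes tested by class, Ier3 fell (-2.01, SE 0.46, edgeR adjusted p = 0.00203) and Hspa1b, a heat shock protein, rose (1.64, SE 0.41, edgeR adjusted p = 0.00477). Over all genes, 6.4% were called by class. Calls of 1 or 2 genes in the receptor, TGF-beta and stress lists are therefore no result about those lists. Among Krt10-low cells and between runs, none of the genes of these lists was called.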

How the data were processed

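Single-cell RNA from mouse dorsal epidermis was measured in 4 libraries of 96 wells. The authors deposited 1 table of UMI counts per library (raw counts per gene and well, with no normalization). The processing notes name the builds mm10 and GRCm38, and the aligner and annotation are not given in the sources used here. Spike-in and marker rows were left out of totals. Wells with at least 2000 gene UMIs were kept (169 of 384 wells had no gene UMI and 54 had fewer than 2000). Shallow wells went unused in the comparisons. No doublet caller was run. Cells were thinned without replacement to 2000 UMIs (seed 1, with 20 other seeds as an alternative, and no kept cell was shallower).

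UMIs were summed per library, or per library and Krt10 class with at least 3 cells, filtered with filterByExpr, scaled by TMM and tested with edgeR 4.0.16 (glmQLFit, glmQLFTest; R 4.3.3) at a Benjamini-Hochberg adjusted p below 0.05. Fold changes are edgeR estimates. Alternatives used DESeq2 1.42.0, limma-voom (limma 3.58.1), other filters, scalings, depths and Krt10 limits, and each library left out. The scripts were tested on simulated data. The 7 genes, the lists and the tests were chosen with earlier results of these data known. Genes of lists were named where they passed the threshold, at most 4 per list and comparison by fold change, besides the 7 genes and the 5 genes most like Cyr61 and Thbs1.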

Additional observations from a re-analysis of the deposited data

Results flagged for a closer look

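An interaction of Krt10 class and sort, added after seeing the data, was called for 5 of 1905 genes (0.262%), Thbs1 among them (fitted difference of 8.10 on the log2 scale, SE 1.95, edgeR adjusted p = 0.0163). It rests on the Krt10-high sums of the 2 Tom- libraries, which come from 3 cells each and hold no Thbs1 UMI. The fitted value is therefore no measure of size, and 3 cells cannot show that the change of Thbs1 differed between sorts. The variance of Thbs1 over cells was 4.77 and 11.3 times its mean in these libraries. The same interaction was -0.38 for Cyr61 (SE 0.55, edgeR adjusted p = 0.956).

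UMIs of 4 of the genes also appeared in wells outside the comparisons. The 54 wells with at least 1 but fewer than 2000 gene UMIs (30056 in all) held 15 UMIs of Cyr61, 20 of Thbs1, 4 of Amotl2 and 4 of Axl, which is 499, 665, 133 and 133 CPM. No Ctgf, Ankrd1 or Tgif1 UMI was found there.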

How the results depend on the processing

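Of the 7 genes, the count called between sorts was 2 and stayed at 2 except among cells with at least 5000 UMIs (1) and in a range of 1 to 2 with a library left out, where the lone library of a sort was assumed to vary like the others. Between Krt10 classes it was 2, and fell to 0 with DESeq2's Wald test, at least 5000 UMIs, without cells with 3 markers of another cell type and with a limit of 1 Krt10 UMI, and to 1 against cells without Krt10 UMIs. It rose to 3, with Tgif1, by limma-voom, and was 2 or 3 over 10 other draws and 3 with classes from full counts, both chosen after seeing the data. Among Krt10-low cells it was 0 and became 1 in cells without Krt10 UMIs, with 1 traced library. Between runs it was 0 throughout, and a library could not be left out there for want of residual degrees of freedom. Reversed fold changes, none of them called, were those of Axl among Krt10-low cells without Tom+ run 2 (0.19) and without Tom- run 1 (0.20, from a range of -1.04 to 0.20 with a library left out), and of Cyr61 between runs among cells with at least 5000 UMIs (-0.67). Which of these losses come from fewer genes, cells or libraries was not tested.

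Over all genes, the 38 calls between sorts became 116 with the replicate block, 65 without Tom- run 1, 24 on thinned counts, 12 without cells with other markers and 8 at 5000 UMIs. The run numbers are not known to pair libraries (correlation of their deviations 0.14, over 3070 genes), and Cyr61 and Thbs1 were called with the block (log2 fold changes -1.77 and -1.86). The block called no member among Krt10-low cells (0 genes in all). The 122 calls by class became 70 without Tom+ run 1, 63 without the deepest cells, 55 without the filter, 52 in Tom+ alone, 51, 42, 30 and 0 under the settings above. The 4 calls among Krt10-low cells ranged from 0 to 5, and the 13 between runs from 0 to 28. The share difference was -27.5 to -14.1 points for Cyr61 and -33.4 to -18.9 for Thbs1 over 20 other seeds, and -32.5 to -16.3 and -33.5 to -19.4 with a library left out. The correlation of both genes was 0.14 to 0.31 over the seeds and 0.14 to 0.23 with a library left out. Depth limits Amotl2, Axl and Tgif1, with 27, 42 and 68 UMIs in all.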
